A study of Homo sapiens with 6 samples.

Results

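Amino acid transporters, taken here as the genes of 7 solute carrier families (SLC1A, SLC3A, SLC6A, SLC7A, SLC36A, SLC38A and SLC43A), were followed in 3 human breast cancer lines. A gene was included where a transcript cluster of the array, the set of probes that reads 1 gene, carried that single symbol. This gave 58 genes of the 18418 that the array reads in that way. They comprised 7 SLC1A genes, 2 SLC3A genes, 18 SLC6A genes, 13 SLC7A genes, 4 SLC36A genes, 12 SLC38A genes and 2 SLC43A genes. Where a gene had more than 1 cluster (2 genes, SLC1A5 and SLC7A14), the one brightest on average was used.

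RNA came from 231BrM-2a (2 arrays), 231BoM-1833 (2 arrays) and MDA-MB-231 (2 arrays). MDA-MB-231 is a mesenchymal, triple-negative breast cancer line. 231BrM-2a and 231BoM-1833 are untreated derivatives of it that were selected in animals for spread to brain and to bone, so all 3 share 1 origin. All were grown in the same RPMI medium with serum and antibiotics, and magnetic beads kept the cells without CD24 that carried CD44 and ESA, the product of EPCAM. The 2 replicates of a line are labelled biological, with no word on separate cultures or sorts, so p-values measure only the spread between these RNA samples and that spread may be technical. The comparisons asked how the sorted cells of each metastatic derivative differ from those of the parental line and from each other.

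Cells cannot make the essential amino acids and take them up through carriers in the plasma membrane, and other carriers move amino acids across the lysosome membrane. Some carriers use the sodium gradient to concentrate amino acids. Others exchange one amino acid for another, so that the cell trades abundant glutamine for leucine, or glutamate for cystine. Several light chains of the SLC7A family reach the surface only when bound to a heavy chain of the SLC3A family. In tumour cells the supply of leucine and glutamine feeds growth signalling by mTORC1, and imported cystine feeds the synthesis of glutathione. A lack of amino acids is sensed by the kinase GCN2, which through the transcription factor ATF4 raises the expression of many carriers and synthesis enzymes.

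The values were log2 expression values on a scale common to the 6 arrays, and the median over all clusters was 6.58 to 6.64 per array. Over the 58 genes, the replicate SD of a line had a median of 0.084 and reached 0.56. The standard error of a log2 change ranged from 0.10 to 0.27, and precision is limited by having 2 arrays per line. VIM, a mesenchymal marker, stood at 12.30 to 12.92 and was lower in 231BrM-2a than in MDA-MB-231 (-0.37) and 231BoM-1833 (-0.59), both called. The hormone receptor genes ESR1 and PGR reached 5.24 and 4.80 at most. ERBB2, the growth factor receptor gene that triple-negative tumours do not amplify, stood at 8.29 to 9.25 and was called higher in 231BrM-2a than in MDA-MB-231 (0.45, adjusted p = 0.0235) and 231BoM-1833 (0.80, adjusted p = 0.00102). The sort markers stood at 11.45 to 12.17 for CD44, 5.76 to 6.49 for CD24 and 7.28 to 8.32 for EPCAM. CD44 was lower in 231BrM-2a than in 231BoM-1833 (-0.54, adjusted p = 0.014), a call not made without either 231BrM-2a array or without 231BoM-1833 replicate 1. Against MDA-MB-231 it was -0.41 in 231BrM-2a (adjusted p = 0.055), and 1 sort marker was called lower there with the dimmest clusters left out. The 231BoM-1833 arrays differed from each other in EPCAM (8.32 and 7.28) and CD24 (6.49 and 5.76). The part of these sort markers in the transporter differences was not tested. No detection calls were used here, so these levels do not say whether a transcript was present. Of 9 leukocyte markers measured, 0 rose and 1 fell in either derivative against the parental line, or 11.1%. Of all clusters, 15.8% were called in 231BoM-1833 and 19.0% in 231BrM-2a, so these few calls do not set the markers apart. The 1 leukocyte marker call was lost without either parental array.

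A change was called where limma's adjusted p was under 0.05, with adjustment over all 21214 clusters that carry a symbol. In 231BoM-1833 against MDA-MB-231, 3 of the 58 transporters rose and 3 fell, or 10.3%, against 15.8% of all clusters (8.43% higher and 7.38% lower). In 231BrM-2a against MDA-MB-231, 5 rose and 6 fell, or 19.0%, against 19.0% of all clusters (10.5% higher and 8.59% lower). Between the derivatives, 6 were higher and 5 lower in 231BrM-2a than in 231BoM-1833, or 19.0%, against 23.5% of all clusters. Over all 58 genes these shares lay at or below those of all clusters, and nothing particular to the set is read from them. Their median log2 change was -0.11, -0.14 and -0.01 in the 3 comparisons, beside -0.05, -0.05 and 0.01 over all clusters. The 2 arrays of one line did not overlap those of the other for 33, 37 and 31 of the 58 transporters, against 59.8%, 63.8% and 60.1% of all clusters. The counts depended on single arrays. Without MDA-MB-231 replicate 1 they were 4, 6 and 11, without MDA-MB-231 replicate 2 they were 3, 5 and 11, without 231BrM-2a replicate 2 they were 5, 6 and 7, and without 231BoM-1833 replicate 2 they were 5, 11 and 7, and without 231BoM-1833 replicate 1 they were 7, 11 and 14. Adjustment over all 33297 clusters of the table, named or not, left 3, 7 and 7.

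In all, 13 transporters were called in at least 1 comparison and 45 in none. The 13 were SLC7A2, SLC7A6, SLC7A7, SLC1A1, SLC1A3, SLC1A4, SLC1A5, SLC36A4, SLC38A2, SLC38A4, SLC38A6, SLC43A1 and SLC43A2. The set holds many dim genes. The dimmest 33.3% of named clusters had a mean over the 6 arrays below 6.26, and 29 of the 58 transporters lay at or below that level with 0 called, where 6.94%, 6.82% and 9.29% of all clusters that dim were called in the 3 comparisons. Of the 29 above it, 6, 11 and 11 were called, against 20.2%, 25.2% and 30.5% of all clusters above it. This split is not independent of the calls, since the mean includes the arrays on which a gene is high. SLC7A7 lies above the level only through 231BrM-2a, and SLC1A1 has both parental arrays below it, so the split is given as a description only.

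**Figure D1:**
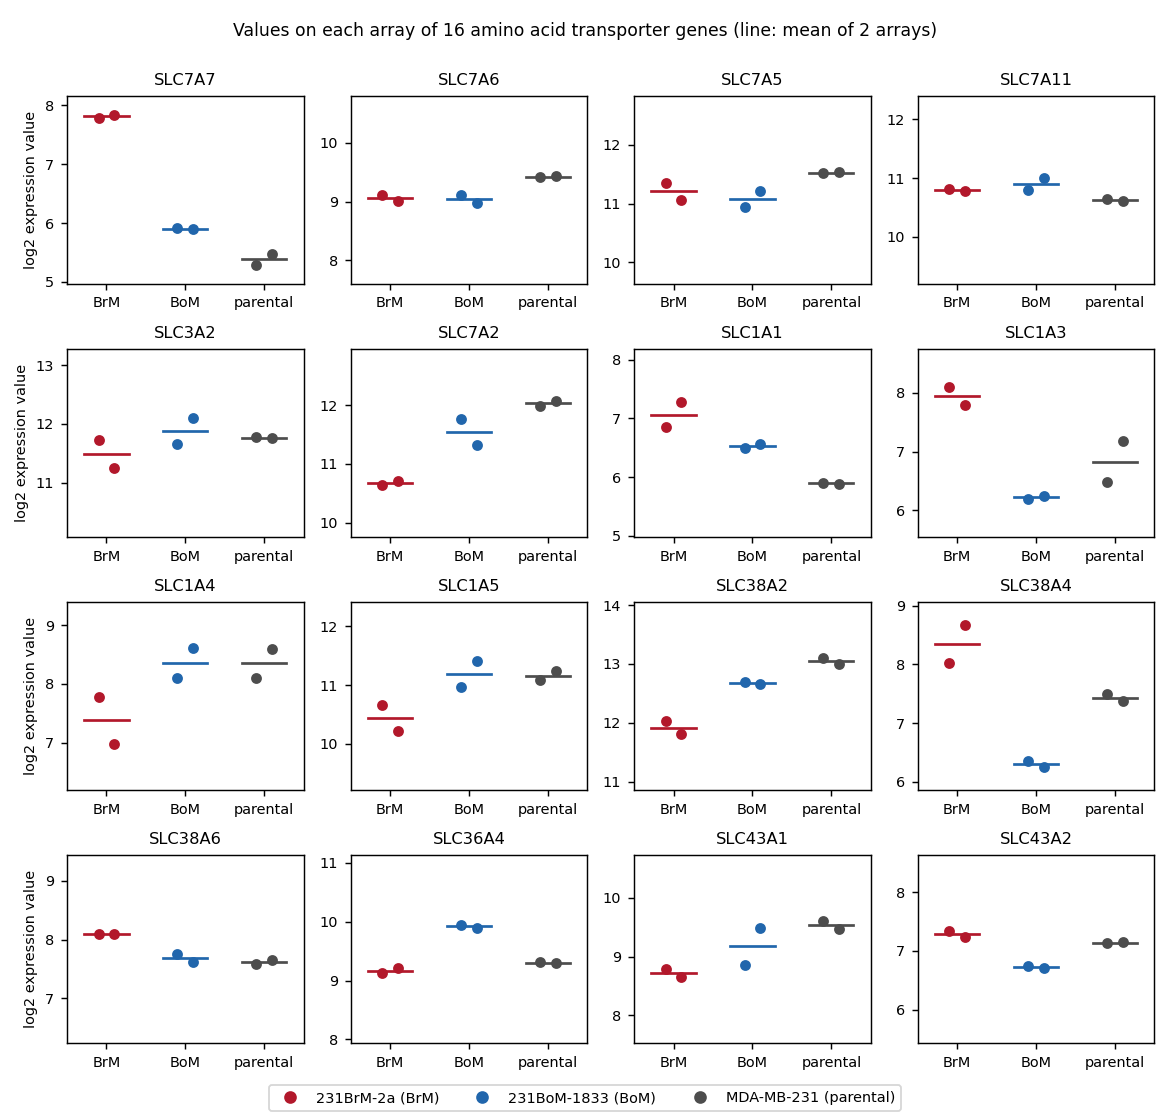
The log2 expression value is plotted for each array of 231BrM-2a (BrM, left), 231BoM-1833 (BoM, middle) and MDA-MB-231 (parental, right), with 1 point per array and a line at the mean of 2 arrays; every panel spans the same height of the log2 scale. SLC7A7 is near 7.8 on both 231BrM-2a arrays and below 6 on the other 4, while SLC38A4 has its highest values in 231BrM-2a and its lowest in 231BoM-1833.

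The heavy and light chains of the heteromeric carriers were led by SLC7A7, which rose in both derivatives and most in 231BrM-2a. SLC7A7 encodes y+LAT1, a light chain that exports cationic amino acids such as arginine in exchange for neutral ones and sodium. It stood at 7.79 and 7.85 on the 231BrM-2a arrays, 5.91 and 5.89 on the 231BoM-1833 arrays and 5.29 and 5.47 on the MDA-MB-231 arrays. No array of one line overlapped those of another. The log2 change was 2.44 ± 0.11 (SE) in 231BrM-2a against MDA-MB-231, or 5.42-fold (adjusted p = 3.57e-06), which placed it 25 from the top among the 21214 clusters. It was 1.92 ± 0.11 in 231BrM-2a against 231BoM-1833, or 3.77-fold (adjusted p = 4.85e-06). The change in 231BoM-1833 against MDA-MB-231 was 0.52 ± 0.11 (adjusted p = 0.0137), which missed the threshold once MDA-MB-231 replicate 1 was left out (0.0898).

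SLC7A6, which encodes the related light chain y+LAT2, went the other way. Its values were 9.11 and 9.01 in 231BrM-2a, 9.11 and 8.98 in 231BoM-1833 and 9.41 and 9.43 in MDA-MB-231. Both derivatives lay below both parental arrays and overlapped each other. The change was -0.36 ± 0.11 in 231BrM-2a (adjusted p = 0.0436) and -0.38 ± 0.11 in 231BoM-1833 (adjusted p = 0.0427), both close to the threshold. Without MDA-MB-231 replicate 1 the adjusted p was 0.135 and 0.133, without MDA-MB-231 replicate 2 it was 0.180 and 0.179, with the replicate number as a block it was 0.0668 and 0.0657, and with adjustment over all clusters of the table it was 0.0929 and 0.0849. The 231BrM-2a call was also lost without 231BrM-2a replicate 1 (0.108) or replicate 2 (0.227). The 231BoM-1833 call was lost without 231BoM-1833 replicate 2 (0.135), without either 231BrM-2a array (0.0690 each) and with a fit of the 4 arrays compared alone (0.0690).

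SLC3A2, the heavy chain also known as CD98, which carries both of these light chains to the surface, stood at 11.72 and 11.26 in 231BrM-2a, 11.65 and 12.10 in 231BoM-1833 and 11.78 and 11.75 in MDA-MB-231. The arrays of the derivatives overlapped each other. Its change was -0.28 in 231BrM-2a against MDA-MB-231 (95% confidence interval -0.68 to 0.13) and 0.11 in 231BoM-1833 against MDA-MB-231 (-0.30 to 0.52), and neither passed the test. Between the derivatives it was -0.39 (-0.79 to 0.02). It was called there without 231BoM-1833 replicate 1 (-0.61, adjusted p = 0.0473).

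SLC7A5 encodes LAT1, the light chain that imports leucine and other large neutral amino acids. It stood at 11.35 and 11.06 in 231BrM-2a, 10.94 and 11.21 in 231BoM-1833 and 11.51 and 11.54 in MDA-MB-231. Both parental arrays were above all 4 arrays of the derivatives. The change was -0.32 in 231BrM-2a (interval -0.62 to -0.01) and -0.45 in 231BoM-1833 (-0.76 to -0.15), and in 231BoM-1833 the adjusted p of 0.0518 just missed the threshold. It passed there without 231BoM-1833 replicate 2 (-0.59, adjusted p = 0.0388), with the dimmest clusters left out (0.0395), with the trend and robust options (0.0295) and when the clusters of a symbol were averaged (0.0499).

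SLC7A11 encodes xCT, the light chain that imports cystine in exchange for glutamate. It stood at 10.81 and 10.78 in 231BrM-2a, 10.80 and 10.998 in 231BoM-1833 and 10.64 and 10.61 in MDA-MB-231. The derivatives lay above the parental arrays without a call, at 0.17 (interval -0.08 to 0.42) in 231BrM-2a and 0.27 (0.03 to 0.52, adjusted p = 0.12) in 231BoM-1833. Of the 8 light chains, 1 rose and 1 fell in each derivative against the parental line. Of all clusters, 15.8% were called in 231BoM-1833 and 19.0% in 231BrM-2a, so these few calls do not set the light chains apart. The other 4 light chains, SLC7A8, SLC7A9, SLC7A10 and SLC7A13, and the heavy chain gene SLC3A1 were not called in any comparison.

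In the cationic branch of the family, whose best known members take up arginine, lysine and ornithine without a heavy chain, SLC7A2 was called and the other 4 genes were not. SLC7A2 encodes CAT2, a carrier also known for supplying arginine to nitric oxide synthesis in activated macrophages. Its values were 10.65 and 10.71 in 231BrM-2a, 11.76 and 11.32 in 231BoM-1833 and 11.99 and 12.07 in MDA-MB-231. The 3 lines formed 3 separate levels. The change was -1.35 ± 0.14 in 231BrM-2a against MDA-MB-231, or 2.55-fold lower (adjusted p = 0.000345), and -0.86 ± 0.14 against 231BoM-1833 (adjusted p = 0.00256). In 231BoM-1833 against MDA-MB-231 it was -0.49 ± 0.14 and missed the threshold (adjusted p = 0.0504). It passed there without 231BoM-1833 replicate 1 (-0.71, adjusted p = 0.00961), with the dimmest clusters left out (0.0390), after quantile normalization was repeated (0.0302), with the trend and robust options (0.0301) and when the clusters of a symbol were averaged (0.0486). SLC7A1, which encodes the widely expressed carrier CAT1, lay between 10.79 and 10.998 on all 6 arrays. Its change was 0.05 in 231BrM-2a (interval -0.21 to 0.30) and 0.02 in 231BoM-1833 (-0.24 to 0.27).

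The 5 acidic amino acid carriers concentrate glutamate and aspartate against a steep gradient and are best known for clearing glutamate from synapses. Of these, 2 rose and 0 fell in 231BrM-2a against MDA-MB-231, where 10.5% of all clusters rose and 8.59% fell. Nothing particular to so small a group is read from this count. SLC1A1, which encodes EAAT3 and also carries cysteine, stood at 6.85 and 7.28 in 231BrM-2a, 6.50 and 6.56 in 231BoM-1833 and 5.90 and 5.89 in MDA-MB-231. The lines did not overlap, and both derivatives lay above the parental line. The change was 1.17 ± 0.14 in 231BrM-2a (adjusted p = 0.000742) and 0.63 ± 0.14 in 231BoM-1833 (adjusted p = 0.0188). The call in 231BoM-1833 ended on leaving out either parental array (0.0832 for replicate 1, 0.109 for replicate 2) or 231BoM-1833 replicate 2 (0.0618), and with adjustment over all clusters of the table (0.0586). SLC1A1 also differed between the derivatives, by 0.53 ± 0.14 (adjusted p = 0.0238). Leaving out 231BrM-2a replicate 2 gave 0.32 (0.171), and the call also ended without 231BoM-1833 replicate 1 (0.0760) or replicate 2 (0.0579), and with adjustment over all clusters of the table (0.0685).

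SLC1A3 encodes EAAT1, also known as GLAST, a glutamate and aspartate carrier typical of astrocytes. It stood at 8.10 and 7.80 in 231BrM-2a, 6.20 and 6.24 in 231BoM-1833 and 6.49 and 7.18 in MDA-MB-231. Both 231BrM-2a arrays were above the other 4, and the parental arrays differed from each other more than those of any other line did. The change was 1.11 ± 0.20 in 231BrM-2a against MDA-MB-231, or 2.16-fold (adjusted p = 0.00527), and 1.72 ± 0.20 against 231BoM-1833, or 3.30-fold (adjusted p = 0.000355). In 231BoM-1833 against MDA-MB-231 it was -0.61 ± 0.20 (adjusted p = 0.0713). Leaving out MDA-MB-231 replicate 1 made it -0.95 and called (0.0185). SLC1A2, SLC1A6 and SLC1A7, carriers of the same group known from brain and retina, were not called and had mean values below 6.26.

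The neutral exchangers SLC1A4 and SLC1A5 both fell in 231BrM-2a, while in 231BoM-1833 neither cluster used was called and a second cluster of SLC1A5 was. SLC1A5 encodes ASCT2, a major route of glutamine entry in cancer cells, and SLC1A4 encodes ASCT1, which carries serine, alanine and cysteine. SLC1A5 stood at 10.66 and 10.23 in 231BrM-2a, 10.98 and 11.40 in 231BoM-1833 and 11.09 and 11.23 in MDA-MB-231. SLC1A4 stood at 7.78 and 6.98 in 231BrM-2a, 8.10 and 8.61 in 231BoM-1833 and 8.11 and 8.59 in MDA-MB-231. For both genes the 231BrM-2a arrays were the 2 lowest of the 6, and replicate 2 was the lower of them.

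SLC1A5 changed by -0.72 ± 0.18 in 231BrM-2a against MDA-MB-231 (adjusted p = 0.0212) and by -0.75 ± 0.18 against 231BoM-1833 (adjusted p = 0.0143). SLC1A4 changed by -0.97 ± 0.27 against MDA-MB-231 (adjusted p = 0.0347) and by -0.97 ± 0.27 against 231BoM-1833 (adjusted p = 0.0279). The changes in 231BoM-1833 were 0.03 (interval -0.37 to 0.43) and 0.01 (-0.60 to 0.61). The calls rested on 231BrM-2a replicate 2. Without it, SLC1A5 changed by -0.50 (adjusted p = 0.158) and -0.53 (0.113), and SLC1A4 by -0.57 (0.218) and -0.58 (0.186). The calls against MDA-MB-231 were also lost without MDA-MB-231 replicate 1 (0.0672 for SLC1A5, 0.0530 for SLC1A4) or replicate 2 (0.139 and 0.229). Those against 231BoM-1833 were lost without 231BoM-1833 replicate 2 (0.0778 and 0.150). Adjustment over all clusters of the table ended all 4 calls (0.0532 to 0.110). The dimmer of the 2 clusters of SLC1A5, not used by the rule, read 6.92 and 6.63 in 231BrM-2a, 6.82 and 6.94 in 231BoM-1833 and 7.57 and 7.65 in MDA-MB-231. It changed by -0.84 ± 0.13 in 231BrM-2a (adjusted p = 0.00205) and by -0.73 ± 0.13 in 231BoM-1833 (adjusted p = 0.00623), so the clusters of this gene disagree on the bone-selected line. With the mean of both clusters, the difference between the derivatives was -0.43 (adjusted p = 0.065).

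Promoters of these genes were read for the letters of the composite site that ATF4 binds together with C/EBP factors. The letters TGATGNAA, and the exact form TGATGCAA that it includes, were searched on both strands in the RefSeq windows of 250 bases before to 50 bases after each start (GRCh38.p14). Of the 58 transporters, 45 had at least 1 window and together 67. TGATGNAA occurred in 6 of the 45 genes (SLC1A3, SLC1A4, SLC1A5, SLC3A2, SLC7A1 and SLC38A1), against 4.46% of all 27305 genes with a window. It occurred in 6 of the 67 windows, against 3.62% of all 35116 windows. TGATGCAA occurred in 3 of the 45, all SLC1A genes, against 1.08% of all genes, and in 3 of the 67 windows, against 0.866% of all windows. A match is a description of the letters and not a site of binding. Letters outside these windows, introns included, were not searched, so a window without a match does not show that the gene lacks the site. The windows of the exchangers that fell in 231BrM-2a and of SLC1A3, which rose, are shown because they hold the exact form, and that of SLC38A2, which also fell, because it does not; the capitals mark the match, and the windows lie at chr2:64989149-64989448 (plus strand), chr19:46784765-46785064 (minus strand), chr5:36596338-36596637 (plus strand) and chr12:46372724-46373023 (minus strand).
SLC1A4: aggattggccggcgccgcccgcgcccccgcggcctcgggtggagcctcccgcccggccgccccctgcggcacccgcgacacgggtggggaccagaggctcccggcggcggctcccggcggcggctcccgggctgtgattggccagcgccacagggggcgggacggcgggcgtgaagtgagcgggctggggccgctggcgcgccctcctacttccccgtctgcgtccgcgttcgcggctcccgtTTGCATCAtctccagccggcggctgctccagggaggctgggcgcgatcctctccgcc
SLC1A5: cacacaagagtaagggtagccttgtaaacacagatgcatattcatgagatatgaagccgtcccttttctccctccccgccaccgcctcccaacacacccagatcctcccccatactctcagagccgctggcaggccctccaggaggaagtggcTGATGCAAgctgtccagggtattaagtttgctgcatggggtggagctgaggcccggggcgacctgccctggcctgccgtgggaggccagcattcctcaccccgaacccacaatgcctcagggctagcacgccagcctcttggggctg
SLC1A3: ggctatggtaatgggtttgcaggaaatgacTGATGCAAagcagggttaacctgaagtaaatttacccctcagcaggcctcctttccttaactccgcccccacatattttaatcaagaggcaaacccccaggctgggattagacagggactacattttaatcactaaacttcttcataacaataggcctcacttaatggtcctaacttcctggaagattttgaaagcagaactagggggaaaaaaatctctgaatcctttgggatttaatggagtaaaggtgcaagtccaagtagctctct
SLC38A2: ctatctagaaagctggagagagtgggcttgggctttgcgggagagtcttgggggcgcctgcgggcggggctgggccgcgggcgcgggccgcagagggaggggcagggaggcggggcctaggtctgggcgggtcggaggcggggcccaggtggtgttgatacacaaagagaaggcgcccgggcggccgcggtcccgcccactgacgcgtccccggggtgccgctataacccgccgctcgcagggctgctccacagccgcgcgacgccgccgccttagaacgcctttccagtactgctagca
The match began 7, 97 and 220 bases before the start in SLC1A4, SLC1A5 and SLC1A3. In SLC1A4 it read TTGCATCA, the same letters on the other strand. SLC1A5 and SLC1A3 have 3 windows each and SLC1A4 has 2, and the match was in 1 of them in each gene.

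The SLC38A family, sodium-coupled carriers of glutamine and other neutral amino acids, held the transporter that moved in opposite directions in the derivatives. SLC38A4 encodes SNAT4, a carrier of neutral and cationic amino acids best known from liver and placenta. It stood at 8.02 and 8.68 in 231BrM-2a, 6.36 and 6.25 in 231BoM-1833 and 7.49 and 7.37 in MDA-MB-231. The 3 lines did not overlap, with the brain-selected line highest and the bone-selected line lowest. The change was 0.92 ± 0.19 in 231BrM-2a against MDA-MB-231, or 1.89-fold (adjusted p = 0.00937), and -1.13 ± 0.19 in 231BoM-1833 against MDA-MB-231, or 2.18-fold lower (adjusted p = 0.00556). Both are measured against the same parental arrays. The direct difference between the derivatives was 2.04 ± 0.19, or 4.12-fold (adjusted p = 8.72e-05). The increase in 231BrM-2a missed the threshold once MDA-MB-231 replicate 2 was left out (adjusted p = 0.0775) and was 0.59 without 231BrM-2a replicate 2 and 1.25 without replicate 1.

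SLC38A2 encodes SNAT2, a carrier that amino acid starvation and hypertonic stress are known to induce. Its values were 12.02 and 11.82 in 231BrM-2a, 12.69 and 12.67 in 231BoM-1833 and 13.10 and 12.99 in MDA-MB-231. The 3 lines formed separate levels in the same order as those of SLC7A2. The change was -1.12 ± 0.11 in 231BrM-2a against MDA-MB-231, or 2.18-fold lower (adjusted p = 0.00024), and -0.76 ± 0.11 against 231BoM-1833 (adjusted p = 0.00135). In 231BoM-1833 it was -0.37 ± 0.11 and missed the threshold (adjusted p = 0.0577), but passed with the dimmest clusters left out (0.0419), after repeated quantile normalization (0.0248) and with the trend and robust options (0.0199).

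SLC38A6, a less studied member of the family, read 8.09 on both arrays of 231BrM-2a, 7.76 and 7.61 in 231BoM-1833 and 7.58 and 7.64 in MDA-MB-231. The brain-selected line lay above the other lines, which overlapped. The change was 0.48 ± 0.11 against MDA-MB-231 (adjusted p = 0.013) and 0.41 ± 0.11 against 231BoM-1833 (adjusted p = 0.0221). The first call was lost when any array of either line was left out (0.0638 to 0.0799). The second was lost on leaving out either 231BrM-2a array (0.103 and 0.104) or 231BoM-1833 replicate 2 (0.0927), and with adjustment over all clusters of the table (0.0523).

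SLC38A1, which encodes the glutamine carrier SNAT1, lies next to SLC38A2 on chromosome 12 among protein-coding genes of the RefSeq table, and SLC38A4 lies on the other side of SLC38A2. The 3 neighbours did not move alike in 231BrM-2a. SLC38A1 stood at 11.83 and 11.48 in 231BrM-2a, 11.89 and 11.91 in 231BoM-1833 and 11.89 and 12.15 in MDA-MB-231. Its change of -0.36 in 231BrM-2a (interval -0.69 to -0.04) was not called, beside the fall of SLC38A2 and the rise of SLC38A4. SLC38A9, a lysosomal carrier that reports arginine to mTORC1, lay between 8.19 and 8.68 on all arrays and was not called. The remaining 7 members of the family were not called either.

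Among the SLC36A genes, some of which encode proton-coupled or lysosomal carriers, SLC36A4 was called. SLC36A4, a high-affinity carrier of proline and tryptophan, stood at 9.12 and 9.22 in 231BrM-2a, 9.94 and 9.90 in 231BoM-1833 and 9.31 and 9.30 in MDA-MB-231. The bone-selected line was highest. The change was 0.62 ± 0.10 in 231BoM-1833 against MDA-MB-231 (adjusted p = 0.00521), and -0.75 ± 0.10 in 231BrM-2a against 231BoM-1833 (adjusted p = 0.000809). In 231BrM-2a against MDA-MB-231 it was -0.13 (interval -0.36 to 0.09). Both calls held under all 13 alternatives listed for them. SLC36A1, the lysosomal carrier PAT1, had changes of -0.32 in 231BrM-2a and -0.11 in 231BoM-1833 without a call, and SLC36A2 and SLC36A3 were dim.

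The SLC43A genes encode LAT3 and LAT4, carriers of branched-chain and other large neutral amino acids that work without a heavy chain. SLC43A1 (LAT3) stood at 8.79 and 8.65 in 231BrM-2a, 8.85 and 9.49 in 231BoM-1833 and 9.60 and 9.47 in MDA-MB-231. The brain-selected line was below the parental line, and the bone-selected arrays differed by more than the other pairs. The change was -0.81 ± 0.19 in 231BrM-2a against MDA-MB-231 (adjusted p = 0.015). This call was lost when any of these 4 arrays was left out (0.0545 to 0.0992) and with adjustment over all clusters of the table (0.0603). In 231BoM-1833 the change was -0.36 ± 0.19, and -0.68 without 231BoM-1833 replicate 2 (adjusted p = 0.0158). Without 231BoM-1833 replicate 1, the difference between the derivatives was called (-0.77, adjusted p = 0.00439).

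SLC43A2 (LAT4) stood at 7.34 and 7.24 in 231BrM-2a, 6.74 and 6.72 in 231BoM-1833 and 7.14 and 7.15 in MDA-MB-231. The bone-selected line was lowest. The change was -0.41 ± 0.10 in 231BoM-1833 against MDA-MB-231 (adjusted p = 0.0268) and 0.56 ± 0.10 in 231BrM-2a against 231BoM-1833 (adjusted p = 0.00393). The first call was lost when any of these 4 arrays was left out (0.0557 to 0.136) and with adjustment over all clusters of the table (0.0607), and the second held under all 13 alternatives.

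**Figure D2:**
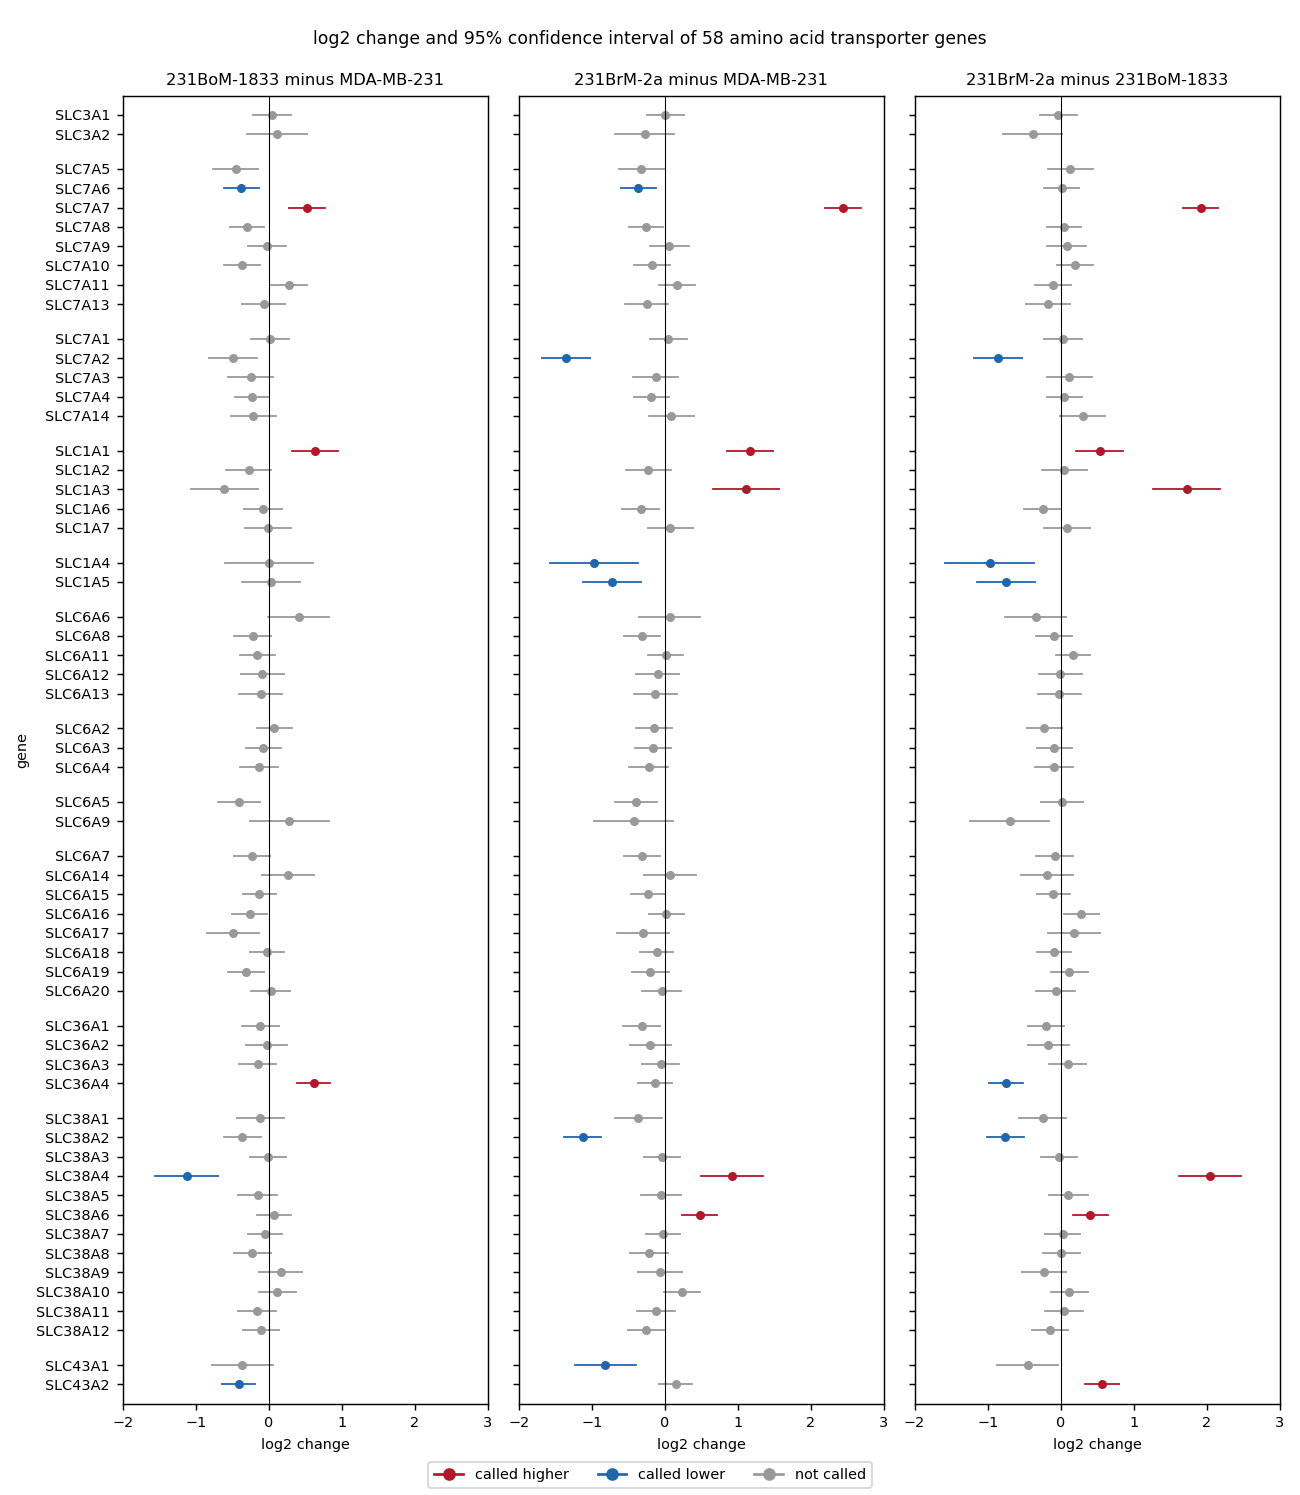
The log2 change of each of the 58 genes is plotted with its 95% confidence interval from limma in 3 panels, 231BoM-1833 minus MDA-MB-231, 231BrM-2a minus MDA-MB-231 and 231BrM-2a minus 231BoM-1833, with genes grouped by role and coloured by the call. Most intervals include 0 or lie close to it, and SLC7A7, SLC38A4, SLC1A3 and SLC7A2 stand farthest from it.

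The SLC6A family holds carriers of GABA, taurine, creatine, glycine, monoamines and amino acids that depend on sodium and chloride. Of its 18 genes, 0 were called by limma in any comparison. An unadjusted p under 0.05 was found for 4, 4 and 2 of them in 231BoM-1833 against MDA-MB-231, 231BrM-2a against MDA-MB-231 and 231BrM-2a against 231BoM-1833. Over all 21214 clusters, 6887, 6937 and 7330 had one, which are larger shares than those of the SLC6A genes. Most SLC6A genes are dim: 13 had a mean at or below 6.26, and 6.82% to 9.29% of all clusters that dim were called. Their changes against the parental line ran from -0.42 to 0.07 in 231BrM-2a and from -0.49 to 0.41 in 231BoM-1833. SLC6A6, the taurine carrier, stood at 10.16 and 10.29 in 231BrM-2a, 10.32 and 10.82 in 231BoM-1833 and 10.36 and 9.96 in MDA-MB-231. The parental arrays overlapped those of both derivatives. SLC6A9, the glycine carrier GlyT1, stood at 7.52 and 6.97 in 231BrM-2a, 7.60 and 8.30 in 231BoM-1833 and 7.53 and 7.81 in MDA-MB-231. Its difference between the derivatives was -0.70 (interval -1.24 to -0.16, adjusted p = 0.065). The monoamine carrier genes SLC6A2, SLC6A3 and SLC6A4 lay between 5.07 and 6.93 on all arrays.

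The lists of related genes were not tested as sets, and each share called stands beside that of all clusters, which was 15.8% in 231BoM-1833 against MDA-MB-231, 19.0% in 231BrM-2a against MDA-MB-231 and 23.5% between the derivatives. Of 19 cytosolic aminoacyl-tRNA synthetase genes, which load amino acids onto transfer RNAs, 1 rose and 9 fell in 231BrM-2a against MDA-MB-231, or 52.6%, with a median change of -0.42. For 231BoM-1833 against the parental line, 0 rose and 2 fell, or 10.5%, with a median of 0.04. In 231BrM-2a against 231BoM-1833, 2 were higher and 6 lower, or 42.1%, with a median of -0.34. NARS1 stood at 10.97 and 10.77 in 231BrM-2a, 11.95 and 12.03 in 231BoM-1833 and 11.90 and 11.88 in MDA-MB-231. It fell by 1.02 ± 0.11 in 231BrM-2a against MDA-MB-231 (adjusted p = 0.000394), and FARSA (-0.90), VARS1 (-0.71) and KARS1 (-0.69) fell there too. KARS1 and VARS1 also fell in 231BoM-1833 (-1.05 and -0.48), while QARS1 rose in 231BrM-2a (0.37). With adjustment over all clusters of the table, 0 rose and 5 fell in 231BrM-2a against MDA-MB-231. Single arrays moved the count of 10 in 231BrM-2a against MDA-MB-231 to 5 without MDA-MB-231 replicate 1, 4 without MDA-MB-231 replicate 2 and 4 without 231BrM-2a replicate 2. The count of 8 between the derivatives was 4 without 231BrM-2a replicate 2, and the 2 in 231BoM-1833 became 1 without either MDA-MB-231 array.

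Of 25 genes of the amino acid response and ATF4 targets, 1 rose and 4 fell in 231BrM-2a against MDA-MB-231, 5 rose and 0 fell in 231BoM-1833 against MDA-MB-231, and 0 were higher and 7 lower in 231BrM-2a than in 231BoM-1833. The shares called were 20%, 20% and 28%, near those of all clusters. The medians were -0.19, 0.02 and -0.27. PHGDH, the first enzyme of serine synthesis, stood at 8.32 and 8.02 in 231BrM-2a, 10.11 and 10.49 in 231BoM-1833 and 9.82 and 9.81 in MDA-MB-231. It changed by -1.64 ± 0.15 in 231BrM-2a against MDA-MB-231 (adjusted p = 0.000141). CTH, which makes cysteine from cystathionine (-1.01), and CHAC1, which degrades glutathione (-0.87), also fell there, and ATF3 rose (1.08). In 231BoM-1833 DDIT3, a stress-induced transcription factor gene (2.24), ALDH1L2, a mitochondrial folate enzyme (2.06), ATF3 (0.98) and CHAC1 (0.71) rose. Without MDA-MB-231 replicate 1 or replicate 2, 3 genes were called in 231BoM-1833. In 231BrM-2a, 3 were called without MDA-MB-231 replicate 2, and 13 between the derivatives without 231BoM-1833 replicate 1.

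The mean log2 value over those 25 genes was 9.06 and 8.79 on the 231BrM-2a arrays, 9.36 and 9.50 on the 231BoM-1833 arrays and 9.13 and 9.16 on the MDA-MB-231 arrays. The lower array of each derivative was the one on which SLC1A4, SLC1A5 and SLC3A2 were also lower, namely 231BrM-2a replicate 2 and 231BoM-1833 replicate 1. The part of this spread within lines in the transporter differences was not tested.

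Sensing genes moved both ways. Of 26 genes of amino acid sensing by mTORC1 and GCN2, 5 rose and 3 fell in 231BrM-2a against MDA-MB-231, and 4 rose and 2 fell in 231BoM-1833 against MDA-MB-231, or 30.8% and 23.1%. Between the derivatives 26.9% were called. The medians were 0.07 in 231BrM-2a and -0.05 in 231BoM-1833, each against MDA-MB-231, and 0.15 between the derivatives. FNIP2, a partner of folliculin, fell in 231BrM-2a (-0.69). SESN3, a sestrin that restrains mTORC1, stood at 5.24 on both arrays of 231BrM-2a, 8.49 and 8.17 in 231BoM-1833 and 6.37 and 6.47 in MDA-MB-231. It changed by -1.18 ± 0.13 in 231BrM-2a (adjusted p = 0.000345) and by 1.91 ± 0.13 in 231BoM-1833 (adjusted p = 3.95e-05). RRAGB, which encodes a Rag GTPase that brings mTORC1 to the lysosome, rose in both (0.96 and 0.61), as did LAMTOR3, a subunit of its lysosomal anchor (0.55 and 0.90). The 8 calls in 231BrM-2a were 2 and 3 without parental replicate 1 or 2, and 3 and 4 without 231BrM-2a replicate 1 or 2. The 6 calls in 231BoM-1833 were 3 and 2 without parental replicate 1 or 2.

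Of 13 glutamine, glutamate and glutathione enzymes, 3 rose and 1 fell in 231BrM-2a against MDA-MB-231, and 1 rose and 2 fell in 231BoM-1833 against MDA-MB-231, or 30.8% and 23.1%. Between the derivatives, 5 were higher and 1 lower in 231BrM-2a, or 46.2%, beside 23.5% of all clusters. The enzyme medians were 0.04 in 231BrM-2a and -0.14 in 231BoM-1833, each against MDA-MB-231, and 0.17 between the derivatives. GCLM, the modifier subunit of the enzyme that starts glutathione synthesis, stood at 9.04 and 8.86 in 231BrM-2a, 7.92 and 7.16 in 231BoM-1833 and 7.82 and 7.66 in MDA-MB-231. It rose by 1.21 ± 0.21 in 231BrM-2a (adjusted p = 0.00441). There GSR, glutathione reductase, rose by 0.60, GPX1, a glutathione peroxidase, rose by 0.60 and GGT5, a gamma-glutamyltransferase, fell by 0.55. GPX1 and GGT5 were called in the same directions in 231BoM-1833 against MDA-MB-231 (0.68 and -1.13), where BCAT2 also fell (-0.78). Of 15 targets of NRF2, a factor known to raise SLC7A11 as well, 4 rose and 1 fell in 231BrM-2a against MDA-MB-231, or 33.3%, and 2 rose and 2 fell in 231BoM-1833, or 26.7%. Between the derivatives, 4 of them were higher and 1 lower in 231BrM-2a, or 33.3%. Against MDA-MB-231 the median change of the 15 was 0.24 in 231BrM-2a and 0.04 in 231BoM-1833. It was -0.08 between the derivatives, with 10 of the 15 changes below 0. ABCC3 (1.24), NQO1 (1.00) and ME1 (0.91) rose in 231BrM-2a, and AKR1C1 fell (-0.85, adjusted p = 0.00318). Of 18 amino acid and peptide carriers of other families, 0 rose and 1 fell in 231BrM-2a, the mitochondrial glutamate carrier gene SLC25A22 (-0.81), or 5.56%. For 231BoM-1833 the count was 1 up and 2 down, or 16.7%, and between the derivatives 2 were higher and 1 lower in 231BrM-2a, or 16.7%. Medians of these carriers were -0.02 in 231BrM-2a and -0.08 in 231BoM-1833, each against MDA-MB-231, and -0.07 between the derivatives. With adjustment over all clusters of the table, 1 NRF2 target and 0 other carriers were called in 231BoM-1833 against MDA-MB-231. Single arrays mattered here too. The 4 enzyme calls in 231BrM-2a were 1 without MDA-MB-231 replicate 2 or 231BrM-2a replicate 2, and the 3 in 231BoM-1833 were 5 without 231BoM-1833 replicate 1. The 4 NRF2 target calls in 231BoM-1833 were 1 without either parental array. The 3 calls of other carriers in 231BoM-1833 were 0 without either parental array or 231BoM-1833 replicate 2, and the 1 in 231BrM-2a was 2 without either 231BoM-1833 array or 231BrM-2a replicate 1.

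Of 10 endothelial, fibroblast and blood markers, 3 rose and 3 fell in 231BrM-2a against MDA-MB-231, beside 19.0% of all clusters called. In 231BoM-1833 against MDA-MB-231, 1 rose and 1 fell, beside 15.8% of all clusters. Between the derivatives, 3 were higher and 2 lower in 231BrM-2a, beside 23.5% of all clusters. With adjustment over all clusters of the table, 3, 1 and 5 of the 10 were called in these comparisons. The risers in 231BrM-2a against MDA-MB-231 were PDGFRB (1.70), DCN (0.98) and LUM (0.36), taken here as fibroblast markers. Those that fell were KDR (-1.13), PPBP (-0.50) and PECAM1 (-0.38), and 7 of the 10 changes were below 0. LUM was dim, at 3.47 to 4.05 over all arrays. The count of 6 became 3 when any 1 of the 4 arrays compared was left out. The summed level on the linear scale was 753 to 837 in 231BrM-2a, 776 to 825 in 231BoM-1833 and 735 to 771 in MDA-MB-231, and that of the 9 leukocyte markers was 2216 to 2309, 3108 to 3553 and 2658 to 2810. Most of the leukocyte sum is the single gene CD68. Its log2 values were 10.95 and 10.88 in 231BrM-2a, 11.43 and 11.65 in 231BoM-1833 and 11.16 and 11.23 in MDA-MB-231. NKG7, the next brightest, reached 7.30 at most. CD68 was called lower in 231BrM-2a than in 231BoM-1833 (-0.63, limma adjusted p = 0.00389). Values of this array scale have no 0, and the part of these markers in the transporter differences was not tested.

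**Figure D3:**
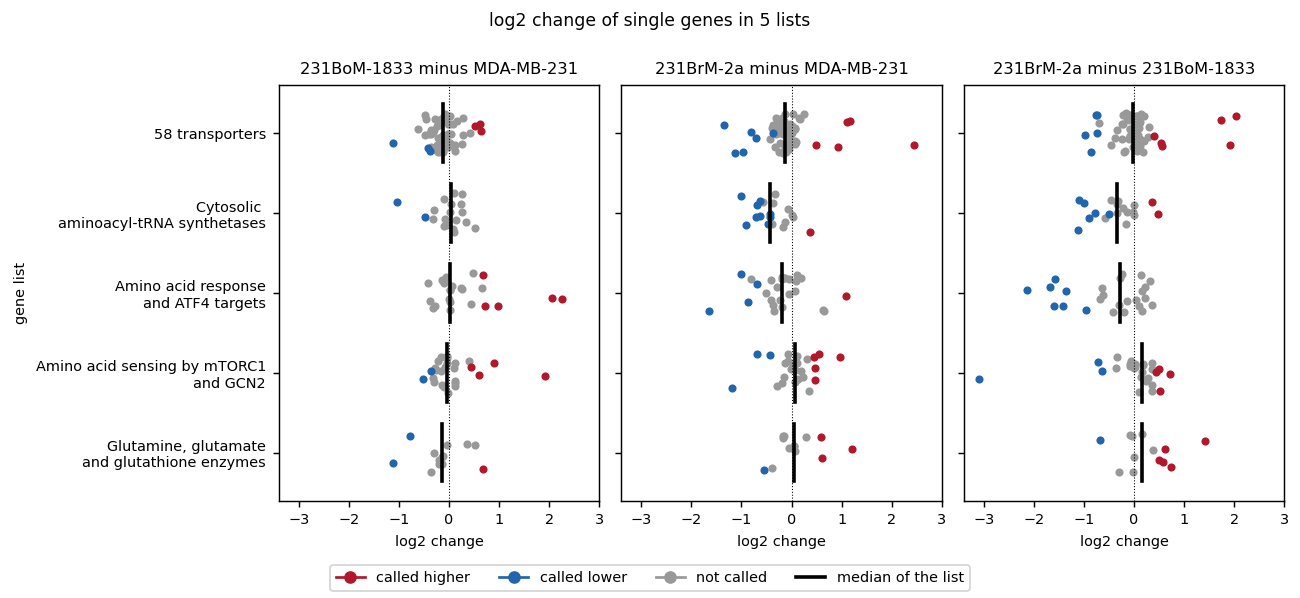
The log2 change of each gene (points, coloured by the call) is plotted for the 58 transporters and 4 related gene lists in 231BoM-1833 minus MDA-MB-231, 231BrM-2a minus MDA-MB-231 and 231BrM-2a minus 231BoM-1833, with a bar at the median of each list and random vertical spread within a row. The aminoacyl-tRNA synthetases have medians of -0.42 and -0.34 in the panels with 231BrM-2a on top, while the transporters have medians near 0 with single genes far to either side.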

How the data were processed

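Transcript levels were measured on 6 Affymetrix Human Gene 1.0 ST arrays. The authors deposited RMA values on the log2 scale for each transcript cluster, computed in Expression Console, per the labels and the submitters' processing notes. The version and the genome build are not given in the sources used here. RMA forces all arrays to 1 distribution, so a global shift in RNA content is removed, and in bulk samples less RNA per cell cannot be told apart from fewer cells of a type. Scanner files, detection calls and hybridisation batches were not used here.

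A platform table gave at least 1 symbol for 21214 of 33297 clusters, 19461 with exactly 1 and 1753 with several, which were not used to name genes; 12083 are unnamed here. By gene number, 26098 of the 26159 symbol entries matched the RefSeq gene table (GRCh38.p14), used for names and neighbours. Limma 3.58.1 in R 4.3.3 was fitted to all 6 arrays with 1 mean for each line (lmFit and eBayes, two-sided, 3 residual and 6.06 prior degrees of freedom), with Benjamini-Hochberg adjustment over 21214 clusters and no filter on low values. The fit was tested on simulated data. The members, gene lists and tests were chosen with earlier results of these data known. Every member past the threshold in any comparison is named, as are SLC3A2, SLC7A5, SLC7A11, SLC1A5 and SLC38A2, with up to 4 genes of each list that changed most past the threshold; QARS1, SLC38A1, SLC38A9, SLC36A1, SLC7A1, SLC6A6, SLC6A9 and the monoamine carriers were added after their values were seen. Lists are given by counts and medians only. No gene list was tested as a set.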

Additional observations from a re-analysis of the deposited data

Results flagged for a closer look

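SLC38A4 differed between the derivatives in the direction of its change. Its log2 change against the shared MDA-MB-231 arrays was 0.92 in 231BrM-2a and -1.13 in 231BoM-1833, both called, and the difference itself, tested as 231BrM-2a against 231BoM-1833, was 2.04 (adjusted p = 8.72e-05). The other 57 transporters were not called in opposite directions.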

How the results depend on the processing

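Of 28 calls of single transporters, 14 held under all 13 alternatives, and 14 were lost under at least 1, as given beside each. The counts of called transporters (6 in 231BoM-1833 against MDA-MB-231, 11 in 231BrM-2a against MDA-MB-231 and 11 in 231BrM-2a against 231BoM-1833) were 3, 7 and 7 when p-values were adjusted over all clusters of the table. With the dimmest 33.3% of named clusters left out, 10 were called in 231BoM-1833 against MDA-MB-231. That setting tested fewer clusters and also estimated the spread anew, and the part of each in the count was not tested. Leaving out 1 array at a time gave 3 to 7, 5 to 11 and 7 to 14. The main fit did not pair samples by replicate number. Deviations of same-numbered arrays correlated across clusters at 0.0362 for 231BoM-1833 and MDA-MB-231, -0.162 for 231BrM-2a and MDA-MB-231 and -0.165 for the derivatives. These values do not decide whether arrays of different lines share a batch, since a crossed numbering could also give negative values. With the replicate number as a block the counts were 5, 10 and 11, all of them among the calls without it, and with the numbers of 231BrM-2a crossed, an alternative chosen after seeing the data, 12 and 12 in the comparisons of that line. The block ended the calls of SLC7A6 and of no other transporter.

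Signs turned only in changes that were not called. The change of SLC1A5 in 231BoM-1833 against MDA-MB-231 was -0.35 with the mean of its clusters. With 1 array left out at a time, the changes in that comparison ran from -0.19 to 0.24 for SLC1A5, -0.25 to 0.26 for SLC1A4, -0.11 to 0.33 for SLC3A2 and -0.000203 to 0.15 for SLC38A6. Between the derivatives they ran from -0.00854 to 0.28 for SLC7A5 and -0.052 to 0.084 for SLC7A6. Where no construction of the alternative shows it, the cause was not tested. With 1 array left in a line, that array is assumed to vary like the other lines. Without a detection limit, dim transporters cannot be told from absent ones.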

Other observations

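A cluster that carries both SLC43A3, a purine carrier of the LAT3 family, and PRG2 was outside the rule because it has 2 symbols. It stood at 10.72 and 10.28 in 231BrM-2a, 11.31 and 11.44 in 231BoM-1833 and 11.28 and 11.40 in MDA-MB-231, so both 231BrM-2a arrays were lowest. Its log2 change was -0.84 ± 0.15 in 231BrM-2a against MDA-MB-231 (limma adjusted p = 0.00475) and -0.88 ± 0.15 against 231BoM-1833 (adjusted p = 0.0028), and the probes do not tell the genes apart. A pair of clusters shared by SLC6A8, the creatine carrier, and its pseudogene copies had changes of 0.31 each in 231BrM-2a against MDA-MB-231, while the cluster of SLC6A8 alone had -0.31, and none of the 3 was called.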
